A study of Homo sapiens with 21 samples.

Results

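The HOX cluster genes are homeobox transcription factors, and they were taken here as every gene of the count tables whose Ensembl identifier maps to a protein-coding gene named HOXA, HOXB, HOXC or HOXD with a number. The rule found 38 members among the 53515 genes counted, of which 11 are HOXA, 9 HOXB, 9 HOXC and 9 HOXD genes, out of 39 such genes in the annotation. HOXB7, the remaining gene, was not analysed here. RNA sequencing covered 7 parental cancer cell lines and 10 treatment-resistant lines derived from them by exposure to increasing doses over months, in 21 libraries. From HepG2 (liver) came HepG2S1 and HepG2S3, both resistant to sorafenib. PancVB (pancreas) was that of the 5-fluorouracil-resistant PancB1Q and PancB1V. The lung line HCC4006 was used as a pair of stocks, HCC4006P1 for the erlotinib-resistant HCC4006ER and HCC4006P2 for the gefitinib-resistant HCC4006GR, and the lung line HCC827P was paired with the gefitinib-resistant HCC827GR. The ovarian line UWB1.289 was paired with U10 and U100, both resistant to olaparib, and IGROV-1/CDDP, resistant to cisplatin, with the ovarian IGROV-1. Libraries were made in replicate, 2 a line, for HCC4006P1, HCC4006ER, HepG2 and HepG2S3, and singly for the other 13 lines. Whether a resistant line is a single clone was not stated. HepG2S1 and HepG2S3 share their parental libraries, as do PancB1Q and PancB1V, and U10 and U100.

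HOX proteins bind DNA through the homeodomain and set the identity of body segments along the head-to-tail axis. The genes lie in a row in each cluster, and in the embryo those at the low-numbered end act toward the head and those at the high-numbered end toward the tail and the limb tips. Adult epithelia keep a HOX pattern that reflects where in the body they came from, and the adult liver is known for low HOX expression. Much of their binding is shared with TALE homeodomain cofactors of the PBX and MEIS families, and retinoic acid is a known inducer of the low-numbered genes. Genes 1 to 3 of a cluster are called anterior here, 4 to 8 central and 9 to 13 posterior. On the GRCh37 build, the HOXA members lie on chromosome 7, and the other clusters span for HOXB chr17:46605888-46806112, HOXC chr12:54332615-54449814 and HOXD chr2:176957449-177055635.

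The homeobox is the stretch that encodes the homeodomain, and its 180 bases lie within the last exon of all 38 members. The sequences below belong to the paralogs whose levels set the HepG2-derived lines apart from HepG2. HOXC10 is set against HOXA10, which also rose there, and HOXD10, which stayed low. HOXA13 is set against HOXC13, which both rose. The reads of these genes have to be told apart by such differences. Each is read from the GRCh37 transcripts in the direction of transcription, and capitals mark bases that differ from the first sequence of its set.
HOXC10 (chr12:54383003-54383182, plus strand, exon 2 of 2): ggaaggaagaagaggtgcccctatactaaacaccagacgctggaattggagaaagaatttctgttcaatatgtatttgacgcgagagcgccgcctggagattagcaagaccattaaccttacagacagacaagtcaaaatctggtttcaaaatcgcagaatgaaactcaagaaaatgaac
HOXA10 (chr7:27211566-27211745, minus strand, exon 2 of 2): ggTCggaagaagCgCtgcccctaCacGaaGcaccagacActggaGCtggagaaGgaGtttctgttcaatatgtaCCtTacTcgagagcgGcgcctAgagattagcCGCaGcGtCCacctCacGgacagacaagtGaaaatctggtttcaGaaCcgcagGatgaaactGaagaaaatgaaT
HOXD10 (chr2:176983732-176983911, plus strand, exon 2 of 2): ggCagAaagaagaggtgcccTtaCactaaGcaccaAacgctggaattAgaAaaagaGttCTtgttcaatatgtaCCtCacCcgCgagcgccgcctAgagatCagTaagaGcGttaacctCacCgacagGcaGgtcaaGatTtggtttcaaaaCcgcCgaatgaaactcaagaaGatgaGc
HOXA13 (chr7:27237841-27238020, minus strand, exon 2 of 2): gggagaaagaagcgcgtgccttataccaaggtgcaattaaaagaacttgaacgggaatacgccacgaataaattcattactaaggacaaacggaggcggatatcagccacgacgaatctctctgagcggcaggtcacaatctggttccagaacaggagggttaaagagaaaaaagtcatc
HOXC13 (chr12:54338825-54339004, plus strand, exon 2 of 2): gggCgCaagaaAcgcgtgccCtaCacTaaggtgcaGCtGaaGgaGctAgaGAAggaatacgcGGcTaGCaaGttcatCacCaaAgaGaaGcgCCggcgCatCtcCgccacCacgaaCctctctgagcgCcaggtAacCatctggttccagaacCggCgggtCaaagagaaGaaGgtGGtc

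Against HOXC10, HOXA10 differed at 33 bases and HOXD10 at 31, and HOXC13 differed from HOXA13 at 43. Over the 41 pairs of members with the same number, between 69.4% and 90.6% of homeobox bases were identical, with a median of 81.7%, against a median of 60.6% over the 662 pairs with different numbers. The longest stretch shared letter for letter by transcripts of 2 members was 62 bases, between HOXB3 and HOXD3. Neighbouring genes also share exon bases on the annotation. HOXC5 shared 67.3% of its exon bases with other genes on its own strand, and on either strand HOXA7 shared 62.5%, HOXD1 60.1% and HOXA4 47.8%. Whether the counting used strand was not given in the sources used here, so reads of such a gene and of its overlapping partner cannot be told apart.

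Depth ran from 9851195 to 36639473 gene counts per library (median 19498932), and 3 counts, the smallest number taken as detected, correspond to between 0.0819 and 0.305 CPM, the unit of all levels here, which scales a gene's counts to the same total of gene counts in every library. In HCC4006P1 replicate 1 the counts ended on chromosome 7 between positions 30555925 and 30620149, past which lay 18.1% of the counts of replicate 2 and none of the HOX genes. Its CPM are therefore too high by a common factor, and genes past this point were left out of the tests. Labelled origins were compared with marker genes. The 7 liver markers summed to between 21385 and 38709 CPM in the HepG2 libraries, but to 1.42 CPM in HepG2S1 and between 28.2 and 29.2 CPM in HepG2S3. Of the 5 lung markers, none reached 1 CPM in HCC4006P1 or HCC4006ER, where NKX2-1, a lung lineage factor, stood at 0.0802 and 0 CPM, against 113 CPM in the other stock, HCC4006P2. Of the 5 ovary and Müllerian markers, 3 reached 1 CPM in UWB1.289 and 1 in IGROV-1. That one was PAX8, at 664 CPM and at 357 CPM in UWB1.289, while WT1 and EMX2 stayed under 1 CPM in both. In PancVB, the pancreatic factor PDX1 stayed at 0.184 CPM while 4 of 5 duct markers were expressed.

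Across the 17 lines, 36 of 38 members reached 1 CPM in at least 1 line. HOXB1 had no count in any library and HOXD12 peaked at 0.305 CPM in U100. In bulk RNA, fewer cells that express a gene and less RNA of it per cell cannot be told apart. The members together held 34.6 CPM in HepG2, the lowest sum of the 17 lines, and 344 CPM in HCC4006P2, the highest. The parental lines differed in which clusters carried this sum. HOXB genes made up 132 of 157 CPM in PancVB, where HOXD genes summed to 0 CPM, and 150 of 344 CPM in HCC4006P2. HOXA genes led in HCC827P with 55.3 of 114 CPM, and in UWB1.289 HOXA and HOXD genes held 49.7 and 30.6 of 99.6 CPM. HOXA and HOXB genes held 19.6 and 17.4 of 42.9 CPM in IGROV-1, where HOXC genes summed to 0.182 CPM.

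**Figure D1:**
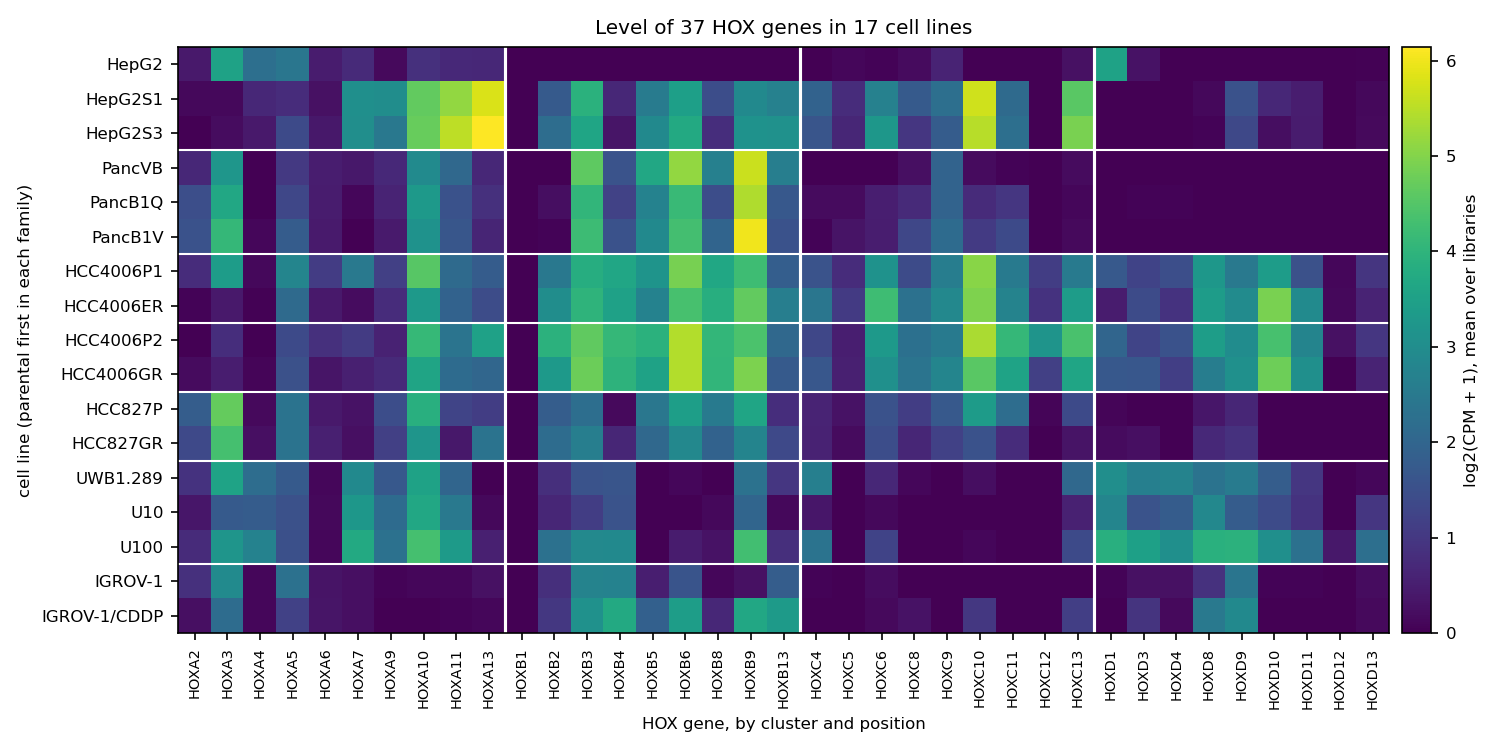
Level of the HOX genes reported (columns, by cluster and position) in each of the 17 cell lines (rows, parental line first in each family) as log2(CPM + 1), averaged over libraries. The HOXB block is dark in full only in HepG2, and the HOXD block is bright in the HCC4006 and UWB1.289 families and dark in the PancVB family.

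Per kilobase of exon, the member with the highest level differed between families. HOXB9, a posterior gene, led in PancVB, PancB1Q and PancB1V with 19.0, 16.1 and 24.6 CPM per kilobase. HOXC10, known from hindlimb and lumbar patterning, led in HCC4006P1, HCC4006ER and HCC4006P2, and HOXB6 in HCC4006GR. HOXA3, an anterior gene of the pharyngeal region, led in HCC827P and HCC827GR with 5.76 and 4.40 CPM per kilobase. UWB1.289 was led by HOXD4 at 5.00, U10 by HOXA7 at 3.56 and U100 by HOXD9 at 7.67 CPM per kilobase. HepG2 was led by HOXD1 at 5.67 CPM per kilobase, HepG2S1 and HepG2S3 by HOXC10 at 21.4 and 18.4, and IGROV-1/CDDP by HOXB4 at 6.14 CPM per kilobase. The leading gene was thus retained between parental and resistant line in the PancVB and HCC827P families and in the HCC4006P1 pair.

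**Figure D2:**
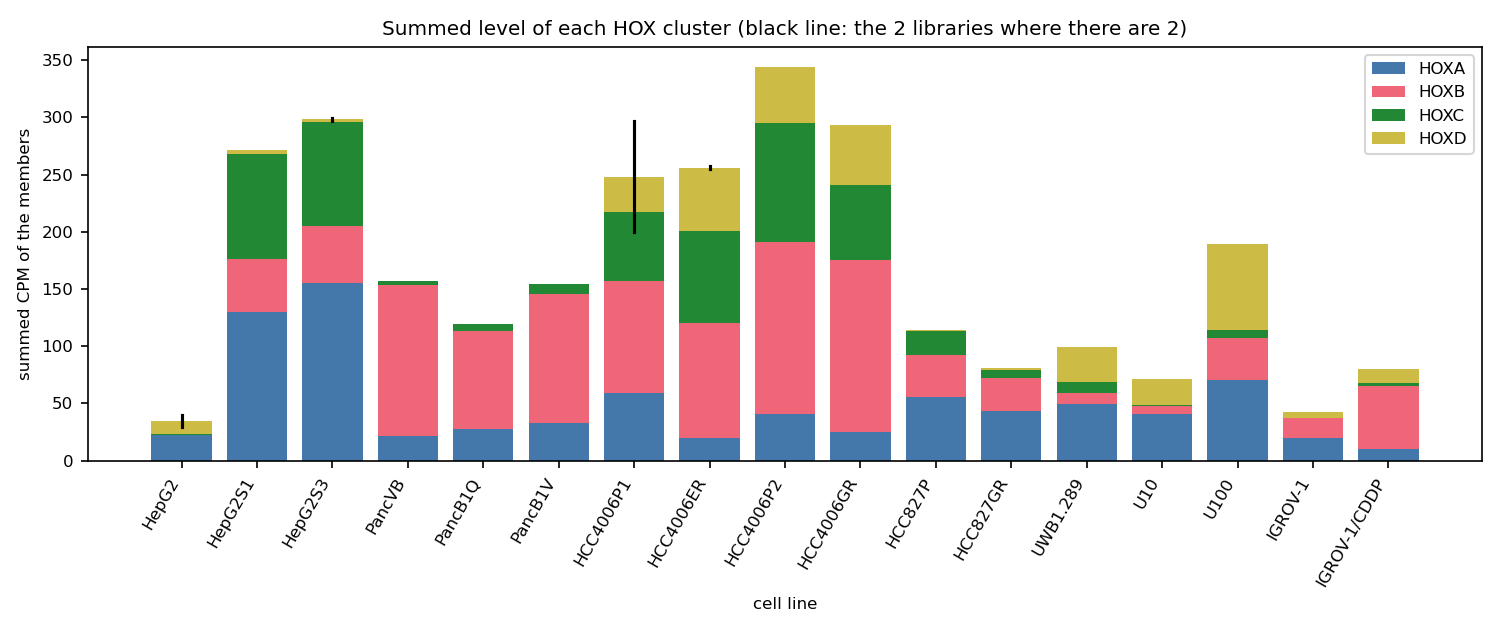
Summed CPM of the HOXA, HOXB, HOXC and HOXD members (stacked bars) in each cell line, with a black line joining the totals of the libraries where a line had 2. HepG2 has the lowest bar at 34.6 CPM, and its sorafenib-resistant lines reach 271 and 298 CPM.

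The question of each pair was how the HOX pattern of a resistant line differs from that of the line it came from. A change was called where it was at least 2-fold on log2(CPM + 1) and the 95% Wilson counting intervals of the pooled counts did not overlap. This rule has no replicate check in the 8 pairs with a line of 1 library, and the pseudocount understates changes of low genes. It called 86 changes over the 10 pairs, and 46 of these fell in the HepG2 family. All 86 had the same sign with TMM library sizes.

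The sorafenib-resistant HepG2S1 and HepG2S3 carried a HOX pattern that HepG2 did not. Posterior HOXA and HOXC genes were high, central HOXC genes were present, and HOXB genes were present at anterior, central and posterior positions. The HOXB sums at these positions were 16.5, 17.4 and 12.1 CPM in HepG2S1, and 14.8, 19.9 and 15.4 CPM in HepG2S3. The few genes that HepG2 expressed at anterior and central positions of HOXA, and HOXD1, were low. In HepG2 4 members reached 1 CPM, against 20 in HepG2S1 and 19 in HepG2S3. The posterior members summed to 2.93 CPM in HepG2, 216 CPM in HepG2S1 and 242 CPM in HepG2S3. In HepG2S1, 20 of the 36 members expressed in any line were higher by the 2-fold rule (55.6%) and 4 were lower (11.1%), against 19.8% and 14.3% of all 19070 expressed genes. In HepG2S3, 18 were higher (50%) and 4 lower (11.1%), against 21.0% and 13.6% of all expressed genes. The median change of the 38 members was 1.49 in HepG2S1 and 0.78 in HepG2S3 on log2(CPM + 1), with medians of 0.13 and 0.10 over all expressed genes. TMM library sizes lowered the median of all genes by 0.36 and 0.27 in these comparisons and turned the sign of no called member.

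**Figure D3:**
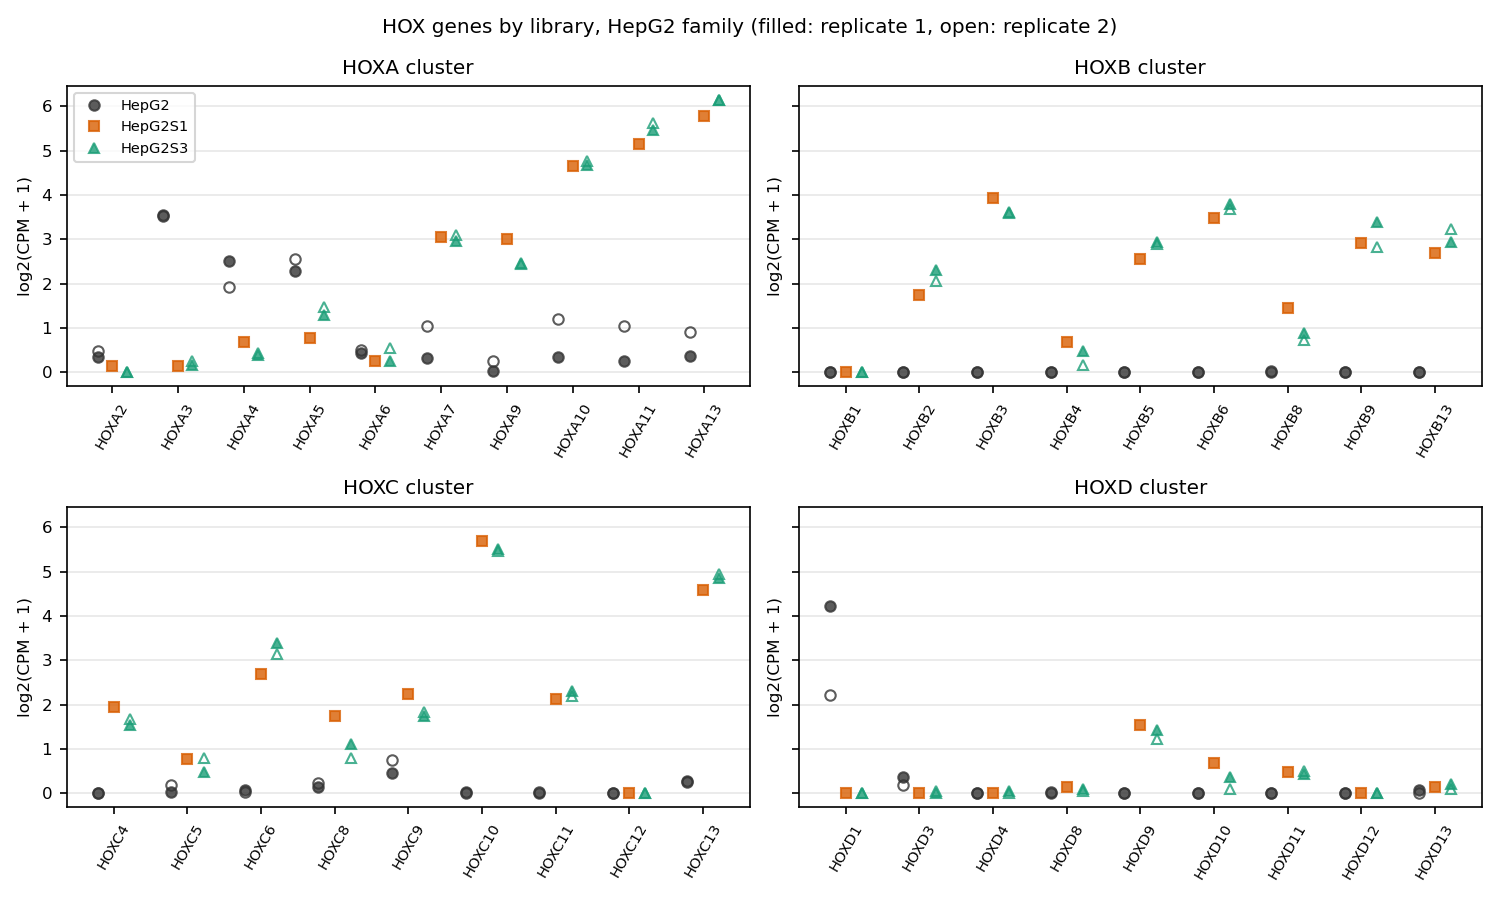
Level of the HOX genes reported as log2(CPM + 1) in each library of HepG2 (circles), HepG2S1 (squares) and HepG2S3 (triangles), by cluster and position, filled for replicate 1 and open for replicate 2. HOXA3, HOXA4, HOXA5 and HOXD1 are higher in HepG2, while HOXA7 to HOXA13 and every expressed HOXB and HOXC gene are higher in the resistant lines.

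Within the HOXA cluster the direction split by position. HOXA3 stood at 10.7 and 10.6 CPM in the HepG2 libraries, 0.102 CPM in HepG2S1, and 0.125 and 0.196 CPM in HepG2S3. HOXA4, a central gene, stood at 4.69 and 2.78 CPM in HepG2, 0.609 CPM in HepG2S1, and 0.312 and 0.359 CPM in HepG2S3. The HepG2 libraries were thus high and did not overlap with the resistant ones for either gene. In edgeR's quasi-likelihood test of HepG2S3 against HepG2, HOXA3 fell by 6.32 (SE 0.31, adjusted p = 0.000112) and HOXA4 by 3.76 (SE 0.41, adjusted p = 0.00112) on the log2 scale. HOXA5, which acts in lung development, fell by 1.73 (SE 0.28, edgeR adjusted p = 0.00397), but its adjusted p was 0.0503 without HepG2S3 replicate 1. HOXA6, next in the row, did not pass the test (log2 fold change -0.58, SE 0.50, edgeR adjusted p = 0.354).

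From HOXA7 on, all 5 remaining HOXA genes were higher in every resistant library than in either HepG2 library. HOXA13, the last gene of the cluster and a limb and urogenital factor, stood at 0.300 and 0.890 CPM in HepG2, 54.3 CPM in HepG2S1, and 69.3 and 70.0 CPM in HepG2S3. HOXA11, which patterns the forearm and uterus, stood at 0.191 and 1.06 CPM in HepG2, 34.6 CPM in HepG2S1, and 43.0 and 48.1 CPM in HepG2S3. HOXA10, a uterine and hindlimb factor, stood at 0.273 and 1.32 CPM in HepG2, 24.3 CPM in HepG2S1, and 24.7 and 26.2 CPM in HepG2S3. The resistant libraries were high and close to each other, and the HepG2 libraries were low but apart from each other, replicate 2 being the higher for each of these genes. By edgeR's test in HepG2S3, HOXA13 rose by 6.58 (SE 0.46, adjusted p = 0.000281), HOXA11 by 5.89 and HOXA10 by 4.71 on the log2 scale. HOXA9 and HOXA7 rose by 4.99 and 3.17. HOXA9, with 8 counts over both HepG2 libraries, passed the low-count filter of the test only through HepG2S3. HOXA7, HOXA10 and HOXA11 fell short of the filter in HepG2 replicate 1 and also needed HepG2S3 to pass. The calls of HOXA7, HOXA9, HOXA10 and HOXA11 add nothing to their values.

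The promoter windows of HOXA13, which rose, and HOXA3, which fell, are shown since the genes moved in opposite directions and the windows differ in CG content. The HOXA3 window is at a far upstream annotated start of that gene. It lies between the windows of HOXA6 and HOXA7, not beside the HOXA3 homeobox or at the anterior end of the cluster. Each is RefSeq sequence on GRCh38.p14 over 300 bases around the annotated start, in the direction of transcription, with CG in capitals.
HOXA13 (chr7:27200042-27200341, minus strand): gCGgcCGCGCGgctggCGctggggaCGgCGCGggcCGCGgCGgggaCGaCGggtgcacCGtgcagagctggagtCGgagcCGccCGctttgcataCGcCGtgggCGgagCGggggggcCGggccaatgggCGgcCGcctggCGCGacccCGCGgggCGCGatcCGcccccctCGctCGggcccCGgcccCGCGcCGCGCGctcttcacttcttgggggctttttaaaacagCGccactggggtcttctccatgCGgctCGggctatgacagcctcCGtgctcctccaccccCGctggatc
HOXA3 (chr7:27152534-27152833, minus strand): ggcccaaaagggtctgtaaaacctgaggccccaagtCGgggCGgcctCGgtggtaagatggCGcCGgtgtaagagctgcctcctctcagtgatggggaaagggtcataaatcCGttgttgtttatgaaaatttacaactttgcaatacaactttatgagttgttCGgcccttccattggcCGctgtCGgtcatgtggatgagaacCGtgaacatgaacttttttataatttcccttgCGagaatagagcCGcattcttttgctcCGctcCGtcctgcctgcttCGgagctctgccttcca

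The HOXA13 window held 44 CG and the HOXA3 window 15. CG was present in 96.0% of the 35116 promoters of the table, with a median of 14, and 95.8% of them held fewer than HOXA13 and 51.1% fewer than HOXA3. Over the 20 members with a window the number ran from 4 to 44, with a median of 22.5, and 16 of 20 exceeded the median of all promoters.

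The HOXB cluster was silent in HepG2, where 1 count over all its members was seen, on HOXB8. HOXB6 had no count in HepG2, 10.2 CPM in HepG2S1, and 12.9 and 11.8 CPM in HepG2S3, so that it was at least 242-fold higher in HepG2S1 and at least 295-fold higher in HepG2S3, taking 3 counts over both HepG2 libraries as the limit. HOXB3 had no count in HepG2 against 14.2 CPM in HepG2S1 and 11.2 and 11.4 CPM in HepG2S3, at least 339-fold and 268-fold higher. HOXB9 had 6.60 CPM in HepG2S1 and 9.53 and 6.07 CPM in HepG2S3 (at least 157-fold and 186-fold higher), and HOXB13, the posterior outlier of the cluster known from prostate, had 5.48, 6.72 and 8.39 CPM (at least 131-fold and 180-fold higher). HOXB5 was at least 116-fold higher in HepG2S1 and 156-fold higher in HepG2S3. No HepG2 library overlapped with a resistant one for any of these genes. The 7 HOXB genes that passed the low-count filter of edgeR's test had at most 1 count in HepG2 and could pass only through HepG2S3, so that their calls there add nothing to these values. HOXB4 did not pass it and stood at 0.609 CPM in HepG2S1 and a mean of 0.268 CPM in HepG2S3, below its neighbours on both sides.

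In the HOXC cluster 8 members passed the filter and were called higher in HepG2S3 by edgeR. Of these, 4 (HOXC4, HOXC6, HOXC10 and HOXC11) had at most 3 counts in HepG2 and could pass only through HepG2S3. HOXC5, HOXC8 and HOXC13, with 6, 10 and 15 counts over both HepG2 libraries, also passed only through HepG2S3. The calls of all these genes add nothing to their values. HOXC12 had no count in the family. HOXC10 had 1 count in HepG2 replicate 1 and none in replicate 2, against 50.8 CPM in HepG2S1 and 44.3 and 43.1 CPM in HepG2S3. HOXC13, a hair and nail factor, stood at 0.218 and 0.201 CPM in HepG2, 22.9 CPM in HepG2S1, and 28.1 and 29.6 CPM in HepG2S3 (log2 fold change 6.79). HOXC6, a thoracic gene, stood at 0.0546 and 0.0287 CPM in HepG2, 5.48 CPM in HepG2S1, and 9.44 and 7.77 CPM in HepG2S3. HOXC10 and HOXC13 thus exceeded the genes between them, HOXC11 at 3.35 CPM and HOXC12 at 0 CPM in HepG2S1, and the profile along the cluster was not even. HOXC5 and HOXC8 rose by 2.43 and 2.45 on the log2 scale, and each lost the call in at least 1 alternative. HOXC5 lost it with DESeq2 and without HepG2S3 replicate 2 (highest adjusted p = 0.155), and HOXC8 without HepG2S3 replicate 1 (adjusted p = 0.0567).

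The HOXD cluster summed to 10.96 CPM in HepG2, nearly all of it from HOXD1, and to 3.15 and 2.26 CPM in HepG2S1 and HepG2S3. HOXD1 stood at 17.7 and 3.67 CPM in the HepG2 libraries and had no count in any of the 3 resistant libraries, at least 35.1-fold lower in HepG2S1 and 223-fold lower in HepG2S3. The HepG2 libraries differed more from each other for HOXD1 than for HOXA3, yet both were above every resistant library. HOXD9 had no count in HepG2, 1.93 CPM in HepG2S1 and 1.69 and 1.34 CPM in HepG2S3, at least 46.0-fold and 36.0-fold higher. HOXD10, the paralog of HOXC10 and HOXA10, reached 0.609 CPM in HepG2S1 and a mean of 0.173 CPM in HepG2S3, and HOXD13 0.102 and 0.111 CPM. In the edgeR test HOXD1 fell, while HOXD9 and HOXD11, called higher, had no HepG2 count and passed the filter only through HepG2S3.

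In that test, 27 of 38 members passed the filter, 22 were called higher and 4 lower, and of all 13334 genes tested 31.7% were higher and 32.9% lower. Of the 22, 13 had at most 3 counts over both HepG2 libraries and entered the test only through HepG2S3, where they are high. The filter asks for more than 3 counts, and HOXA7, HOXA9, HOXA10, HOXA11, HOXC5, HOXC8 and HOXC13 also needed HepG2S3 to pass it. The count of 22 is thus a description and nothing is read from its share. Of the 26 calls, 23 were kept in all alternatives in which the gene was tested. The liver markers moved with this result: all 7 fell in the same test, ALB from 16105 and 8261 CPM in HepG2 to 0 CPM in HepG2S1 and 7.44 and 10.9 CPM in HepG2S3. Of the 6 fibroblast markers, which summed to between 12.8 and 21.6 CPM in HepG2, 561 CPM in HepG2S1 and between 341 and 456 CPM in HepG2S3, 3 reached 1 CPM in each resistant line, and 2 of the 3 tested rose. DCN rose from 0.0136 CPM to 399 and 345 CPM, and COL1A2 stayed under 0.11 CPM. The 2 that rose, DCN and LUM, stood at 0.0136 and 0.028 CPM in HepG2. They entered the test only through HepG2S3, so nothing is read from that count. Fibroblast markers were not the only ones higher in sum. The 5 pancreatic duct markers summed to between 231 and 485 CPM in HepG2, 2965 CPM in HepG2S1 and between 2934 and 3275 CPM in HepG2S3. Of the 4 tested 2 rose and 2 fell. The 5 ovary and Müllerian markers summed to between 20.6 and 25.7, 207, and between 324 and 396 CPM in the same order. Of the 3 tested 2 rose and 1 fell. The part of these markers in the HOX result was not tested, nor was the descent of HepG2S1 and HepG2S3 from HepG2.

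In the lung line HCC4006, the erlotinib-resistant HCC4006ER had less of the HOXA genes and more of some HOXC and posterior HOXD genes than HCC4006P1. HOXA members summed to 59.3 CPM in HCC4006P1 and 19.97 CPM in HCC4006ER, and HOXD members to 30.9 and 55.6 CPM. By the 2-fold rule 3 members were higher (8.33%) and 5 lower (13.9%), against 13.1% and 8.40% of all expressed genes. In edgeR's test 34 of 38 members passed the filter, 9 rose (26.5%) and 6 fell (17.6%), against 24.1% and 24.9% of the 12791 genes tested, so that the shares of members were near those of all genes. By cluster, 0 of 9 tested HOXA genes rose and 5 fell, 3 of 8 HOXB genes rose, 4 of 9 HOXC genes rose, and 2 of 8 HOXD genes rose and 1 fell.

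**Figure D4:**
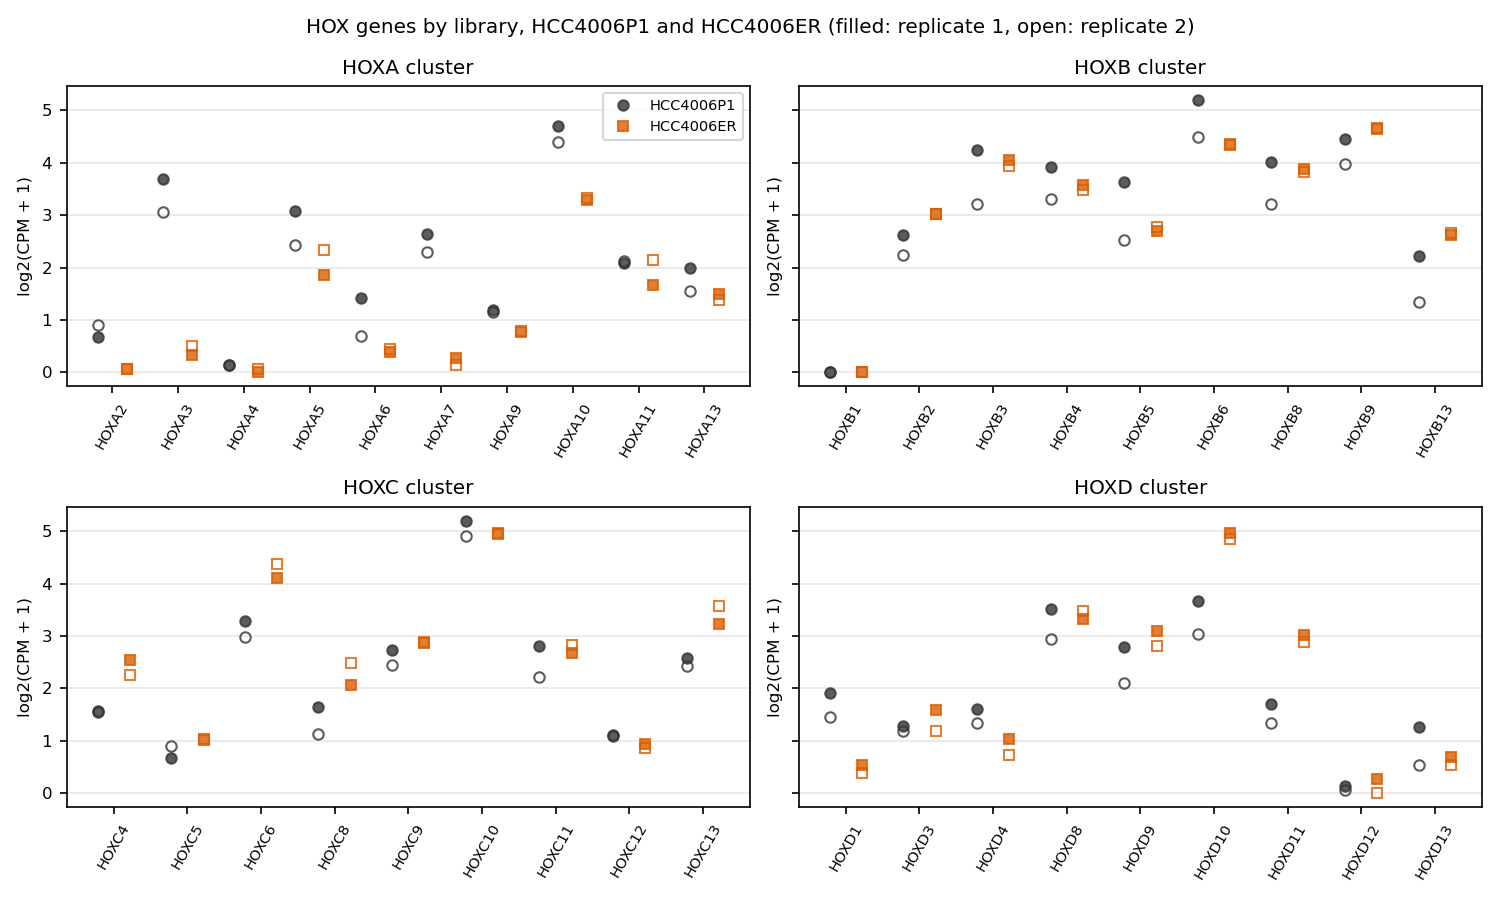
Level of the HOX genes reported as log2(CPM + 1) in the libraries of HCC4006P1 (circles) and HCC4006ER (squares), filled for replicate 1 and open for replicate 2. HOXA3, HOXA7 and HOXA10 are lower in both HCC4006ER libraries, and HOXC6, HOXD10 and HOXD11 are higher.

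HOXA3 stood at 11.8 and 7.39 CPM in HCC4006P1 and 0.253 and 0.411 CPM in HCC4006ER, and fell by 4.76 on the log2 scale (SE 0.33, edgeR adjusted p = 8.74e-05). HOXA7, a central gene, stood at 5.24 and 3.90 against 0.202 and 0.103 CPM (log2 fold change -4.78, SE 0.38, edgeR adjusted p = 0.00016). For these genes the parental libraries were high and did not overlap with the resistant ones. HOXA10 stood at 25.1 and 19.9 against 8.80 and 9.09 CPM and fell by 1.27 (SE 0.15, edgeR adjusted p = 0.000834). HOXA11 and HOXA13 did not pass the test, with log2 fold changes of -0.20 (SE 0.32) and -0.46 (SE 0.27) and edgeR adjusted p of 0.623 and 0.199. HOXA3, HOXA7 and HOXA10 thus fell and the last genes of the cluster were not called, a difference that was not itself tested.

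HOXD10, a lumbar and hindlimb gene, stood at 11.7 and 7.23 CPM in HCC4006P1 and 30.4 and 27.7 CPM in HCC4006ER, and rose by 1.70 on the log2 scale (SE 0.17, edgeR adjusted p = 0.000436). HOXD11, its neighbour, stood at 2.24 and 1.54 against 7.08 and 6.37 CPM (log2 fold change 1.89, SE 0.23, edgeR adjusted p = 0.000885). HOXC6 stood at 8.71 and 6.92 against 16.1 and 19.7 CPM (log2 fold change 1.25, SE 0.18, edgeR adjusted p = 0.00182). The resistant libraries were the higher ones for each, without overlap. HOXD1 at the other end of its cluster fell by 2.48 (SE 0.37, edgeR adjusted p = 0.00205), from 2.78 and 1.74 to 0.455 and 0.308 CPM, and lost the call in the fit of all 21 libraries (adjusted p = 0.0643). HOXC10, the member with the highest level per kilobase in both lines, had a log2 fold change of -0.04 (SE 0.13, edgeR adjusted p = 0.807). Of the 15 calls, 7 were kept in all 10 alternatives, among them HOXA3, HOXA7, HOXA10, HOXC6, HOXD10 and HOXD11. With the genes past the point where HCC4006P1 replicate 1 ends kept in the fit, 9 members were called. The 6 fibroblast markers moved with this result, from between 15.4 and 21.1 CPM in sum to between 1425 and 1668 CPM. Of the 5 tested 5 rose, against 24.1% of all genes tested. DCN had no count in HCC4006P1, where COL3A1, LUM and PDGFRA stood at 0.0534, 0.0791 and 0.078 CPM. These genes entered the test only through HCC4006ER, so nothing is read from the count. COL1A2 lies past the point where HCC4006P1 replicate 1 ends. The part of the fibroblast markers was not tested.

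The changes of the sorafenib-resistant HepG2S3 and the erlotinib-resistant HCC4006ER were set against each other, since they are the replicated pairs. A model of the difference between the change in HepG2S3 and that in HCC4006ER called 24 of the 36 members that passed its filter. The change was higher in HepG2S3 for 21 and lower for 3, and of all 14478 genes tested it was higher for 28.2% and lower for 27.7%. Nothing is read from the members' count here either, since members enter the test through the lines in which they are high. HOXA3 and HOXD1 fell in each of the tests of the single pairs, HOXD1 more so in HepG2S3 (difference -8.85 on the log2 scale), while the posterior HOXA genes rose in HepG2S3 and did not rise in HCC4006ER.

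**Figure D5:**
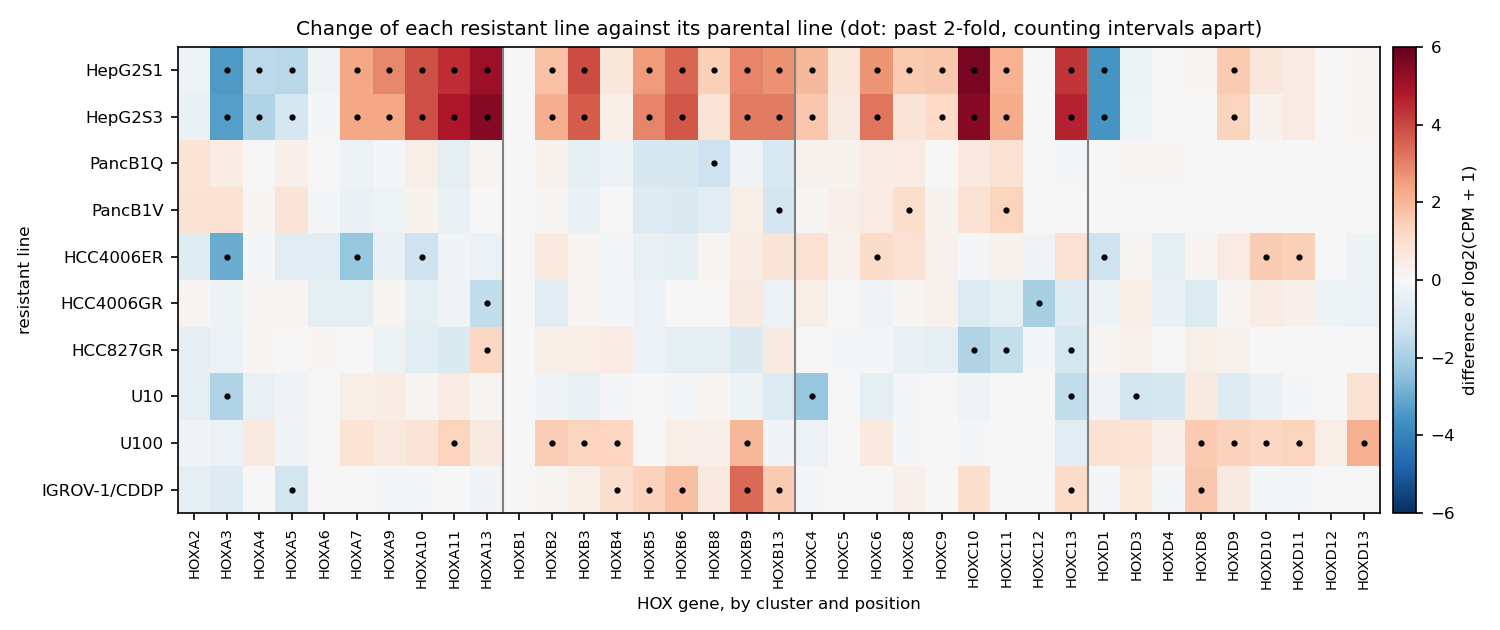
Difference of log2(CPM + 1) between each resistant line and its parental line (rows) for the HOX genes reported (columns), red for higher and blue for lower in the resistant line, with a dot where the 2-fold rule with counting intervals apart was met. The HepG2-derived rows hold 46 dots, and U100 has 10 higher and 0 lower.

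The resistant lines of the ovarian UWB1.289 differed from it in different ways: members were lower in U10 and higher in U100, with 1 library each. In U10, 0 members were higher and 4 lower (11.1%), against 4.92% and 4.01% of all expressed genes. HOXC4 went from 5.33 CPM in UWB1.289 to 0.292 CPM in U10, HOXA3 from 10.8 to 2.34 CPM, HOXC13 from 3.18 to 0.487 CPM, and HOXD3 from 5.33 to 1.95 CPM. In U100, 10 members were higher (27.8%) and 0 lower, against 5.13% and 1.38% of all expressed genes. All 9 HOXD genes were above UWB1.289 in CPM, and 5 met the 2-fold rule, with HOXD8 going from 4.04 to 13.9 CPM, HOXD9 from 4.90 to 14.3 CPM and HOXD13, a limb and genital factor, from 0.0860 to 3.74 CPM. HOXB9 went from 3.96 to 18.6 CPM, a change of 1.98 on log2(CPM + 1) with a counting interval of 1.47 to 2.48, and HOXB2, HOXB3, HOXB4 and HOXA11 were the other genes higher. The HOXD sum was 30.6 CPM in UWB1.289, 22.6 CPM in U10 and 74.7 CPM in U100. HAGLR, the non-coding gene that overlaps HOXD1 on the opposite strand, stood at 87.0, 51.4 and 126 CPM in the same order.

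IGROV-1/CDDP had more of the HOXB genes than IGROV-1, the sum going from 17.4 to 54.9 CPM. Of the expressed members, 7 were higher (19.4%) and 1 lower (2.78%), against 4.28% and 5.57% of all expressed genes. HOXB9 went from 0.218 to 11.8 CPM (change 3.40 on log2(CPM + 1), counting interval 2.97 to 3.69), HOXB6 from 2.04 to 9.65 CPM, HOXB13 from 2.51 to 9.26 CPM, HOXB4 from 5.60 to 12.3 CPM and HOXB5 from 0.437 to 2.69 CPM. HOXD8 went from 0.837 to 4.63 CPM, and HOXC13 from no count to 1.19 CPM, at least 10.9-fold higher. The gene that was lower was HOXA5, at 3.86 and 1.27 CPM. With 1 library on each side these are differences between libraries.

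In the remaining pairs few members differed. PancB1Q had 0 members higher and 1 lower (2.78%), against 4.60% and 7.10% of all expressed genes (whose median TMM raised by 0.15), HOXB8 going from 5.34 to 1.72 CPM. PancB1V had 2 higher (5.56%) and 1 lower (2.78%), against 6.89% and 5.62%, with HOXC8 going from 0.184 to 1.49 CPM, HOXC11 from 0.0460 to 1.61 CPM and HOXB13 from 5.20 to 1.93 CPM. HCC4006GR had 0 higher and 2 lower (5.56%), against 6.27% and 6.04%, HOXC12 from 8.08 to 1.26 CPM and HOXA13 from 10.4 to 3.11 CPM. HCC827GR had 1 higher (2.78%) and 3 lower (8.33%), against 8.03% and 5.80%. There HOXC10, HOXC11 and HOXC13 went from 9.34, 3.58 and 1.62 CPM to 1.93, 0.707 and 0.257 CPM, while HOXA13 went from 1.15 to 4.05 CPM. In these 4 pairs the count of called members in each direction was no more than 3.

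Over the 10 pairs, HOXB9 was called higher in 4 pairs and lower in 0, and HOXA3 lower in 4 and higher in 0. HOXA13 was called higher in 3 and lower in 1, and HOXC13 higher in 3 and lower in 2. HOXB1, HOXA2, HOXA6, HOXC5, HOXD4 and HOXD12 were called in no pair. Pairs of 1 family share their parental library, so these counts do not stand for 10 independent comparisons. To ask for a change common to the families, the libraries were summed to 1 resistant and 1 parental profile for each of the 7 parental lines and tested with edgeR, the parental line being a block. Of the 27 members that passed the filter 0 were called and 0 had an unadjusted p under 0.05, with a lowest adjusted p of 0.982. DESeq2 also called 0, with 1 member at an unadjusted p under 0.05. Over all 12621 genes tested by edgeR, 0.00% were called higher and 0.00% lower. In simulated counts, this design recovered 71 of 200 genes changed 4-fold, and smaller changes were not simulated. The counts were drawn from the profile of a HepG2 library, with a fixed spread and the same change in every line. The spread was not set from the HOX members, so the recovery does not measure the power for them.

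The HOX pattern as a whole was compared by the distance between lines over the 38 members on log2(CPM + 1). In 7 of 10 resistant lines the nearest of the 7 parental lines was the own one, at a distance between 2.84 and 5.36. HepG2S1 and HepG2S3 were farther from HepG2 than from any other parental line, at 15.3 and 15.5, and nearest to HCC4006P1, at 10.1 and 10.7. HCC4006ER lay 5.20 from HCC4006P2 and 5.71 from its own HCC4006P1. The HCC4006P1 libraries lay 3.15 apart, which does not measure the spread of that gap, and the gap was not tested. The libraries of HepG2, HepG2S3 and HCC4006ER lay 2.62, 1.13 and 1.28 apart. These distances are a description, since members of a cluster do not vary independently.

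Genes that act with or beside the HOX genes were read from lists. Of the 9 TALE cofactors, 4 rose and 1 fell among 7 tested in HepG2S3 (57.1% and 14.3%, against 31.7% and 32.9% of all genes tested). PBX4 had no count in HepG2 and between 1.501 and 2.406 CPM in the resistant libraries, and MEIS3 rose by 2.93 (SE 0.40, edgeR adjusted p = 0.00219). PBX4 did not overlap between HepG2 and the resistant lines. In HCC4006ER 1 of 7 TALE cofactors rose and 1 fell (14.3% each, against 24.1% and 24.9% of all genes tested). MEIS1, a cofactor of posterior HOX proteins, rose there by 3.10 (SE 0.28, edgeR adjusted p = 0.00026), from 0.908 and 0.513 to 5.82 and 5.91 CPM, and MEIS2 fell by 1.15 (SE 0.21, edgeR adjusted p = 0.00475). MEIS1 also rose in HepG2S3, by 1.22 (SE 0.21, edgeR adjusted p = 0.00515).

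Of 11 genes that regulate HOX expression, 3 rose and 1 fell among 6 tested in HepG2S3, against 31.7% and 32.9% of all genes tested. Among 7 tested in HCC4006ER, 2 rose and 1 fell, against 24.1% and 24.9% of all genes tested. With so few genes tested, nothing is read from these counts. RARG, a retinoic acid receptor, stood at 5.24 and 3.24 CPM in HepG2, 47.4 CPM in HepG2S1 and 85.5 and 90.4 CPM in HepG2S3, a rise of 4.08 (SE 0.27, edgeR adjusted p = 0.000234). CYP26B1, which degrades retinoic acid, rose by 3.15 (SE 0.28, edgeR adjusted p = 0.000613), from 0.791 and 1.18 to 10.8 and 10.6 CPM, and stood at 11.3 CPM in HepG2S1. It also went from 0.294 to 8.14 CPM between HCC4006P2 and HCC4006GR, and from 2.12 CPM in PancVB to 7.25 CPM in PancB1V.

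Of the 28 non-coding genes of the clusters that were matched, 9 rose and 2 fell among 11 tested in HepG2S3 (81.8% and 18.2%, against 31.7% and 32.9% of all genes tested). Genes such as HOXA11-AS and HOTAIR, nearly without counts in HepG2, entered that test only through HepG2S3, so nothing is read from this count. In HCC4006ER 2 rose and 1 fell among 13 tested (15.4% and 7.69%, against 24.1% and 24.9% of all genes tested). HOXA11-AS stood at 0.0819 and 0.0861 CPM in HepG2, 18.6 CPM in HepG2S1, and 29.0 and 30.0 CPM in HepG2S3, beside the rise of HOXA11. HOTTIP, at the HOXA13 end, had 1 count in HepG2 and 1.73, 3.84 and 2.97 CPM in the resistant libraries. HOTAIR, a non-coding RNA of the HOXC cluster, had a mean of 0.0143 CPM in HepG2, 2.13 CPM in HepG2S1 and 2.88 CPM in HepG2S3. It rose by 1.58 in HCC4006ER (SE 0.39, edgeR adjusted p = 0.0162). HAGLR, next to HOXD1, stood at 137 and 106 CPM in HepG2, 0.102 CPM in HepG2S1, and 0.0625 and 0.196 CPM in HepG2S3, a fall of 10.14 (SE 0.38, edgeR adjusted p = 6.33e-05). HOXD1 and HAGLR thus fell together in HepG2S3, while in HCC4006ER HOXD1 fell and HAGLR did not pass the test (log2 fold change 0.33, SE 0.15, edgeR adjusted p = 0.122). HOTAIRM1, at the anterior end of HOXA, rose by 1.59 in HepG2S3 (SE 0.55, edgeR adjusted p = 0.0498), where HOXA3 fell, and fell by 0.70 in HCC4006ER (SE 0.14, edgeR adjusted p = 0.00752).

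The protein-coding genes that flank the clusters, 5 on each side, were read to see whether the change ended at the cluster. Of 39 matched, 16 rose and 6 fell among 35 tested in HepG2S3 (45.7% and 17.1%, against 31.7% and 32.9% of all genes tested), and 10 rose and 6 fell among 36 tested in HCC4006ER (27.8% and 16.7%, against 24.1% and 24.9%). Beside HOXA, JAZF1, a zinc finger gene beyond the HOXA13 end, stood at 0.109 and 0.143 CPM in HepG2, 25.6 CPM in HepG2S1 and 33.6 and 37.6 CPM in HepG2S3. SKAP2, an adaptor gene beyond the anterior end, fell by 3.37 (SE 0.41, edgeR adjusted p = 0.00154), from 38.3 and 82.4 to 7.40 and 6.89 CPM. It also fell in HCC4006ER, by 1.39 (SE 0.15, edgeR adjusted p = 0.000558). On the same side NFE2L3 also fell, by 2.01, but CBX3 and HNRNPA2B1 rose by 0.98 and 1.07, and beyond the HOXA13 end HIBADH and TAX1BP1 rose by 1.08 and 0.65 (edgeR adjusted p between 0.000392 and 0.0114). The flank beyond the anterior end thus moved in both directions. COPZ2, a coat protein gene beside HOXB, rose by 6.11 in HepG2S3 (SE 0.26, edgeR adjusted p = 8.15e-05) and by 2.24 in HCC4006ER (SE 0.16, edgeR adjusted p = 8.82e-05).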

How the data were processed

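RNA was sequenced from 21 libraries of 17 cell lines. Per the study's methods, a 3′ end kit was used for some libraries and a stranded mRNA kit for others (which for which was not given in the sources used here), and the submitters' processing notes name Bowtie, TopHat, SAMtools and HTSeq with hg19. The authors deposited raw counts of reads per Ensembl gene without normalization. The strand setting of the counting and the annotation were not given in the sources used here.

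From these, the 5 counter rows of HTSeq were left out (ambiguous reads equal 3.87% to 4.40% of those counted plus ambiguous), 45100 of 53515 genes were matched to a GENCODE annotation on GRCh37, CPM were taken over all genes and averaged over libraries, and pairs were compared on log2(CPM + 1). A change was called at 2-fold or more with 95% Wilson intervals apart, among the 19070 genes at 1 CPM or more in any line. Intervals and the limit of 3 counts cover counting error only. The genes past the point where HCC4006P1 replicate 1 ends and the 8415 genes without a position were left out of the tests. Pairs with 2 libraries a side, the difference between them, and 7 sums per parental line with that line as a block were tested with edgeR 4.0.16 (quasi-likelihood, TMM, filterByExpr, Benjamini-Hochberg adjusted p under 0.05) in R 4.3.3, and standard errors were taken as the log2 fold change over the root of the F statistic. Alternatives were DESeq2 1.42.0, RLE factors, no filter, the replicate block, all libraries in 1 fit, other pseudocounts and libraries left out. Python 3.11.15 with numpy 2.4.6, pandas 2.3.3, statsmodels 0.14.6 and matplotlib 3.10.9 was used for the rest.

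The letters A and B of the labels gave the replicate numbers. Another label gives both HepG2 libraries the same number, and likewise HepG2S3. Nothing states that replicates are separate cultures, so p-values measure the spread between these libraries. Replicates differed by more than counting noise (chi-square per degree of freedom 5.97 to 105), so none was counted as a duplicate. On simulated counts with 200 genes changed 4-fold, edgeR recovered 196 for HepG2S3 against HepG2 (12456 genes, 3.45% of calls false), 198 for HCC4006ER (11960 genes, 5.71%), 146 for the difference (12338 genes, 5.81%) and 71 for the 7 parental lines (11073 genes, 2.74%). The spread of the simulated counts was set to a fixed value for each design.

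The members and the lists were chosen with earlier results of these data known. Any member may be named, except that 1 member and 1 listed cofactor, which remain in the counts and sums, are not reported here. Per pair, members called by the 2-fold rule are named first, and of each list at most 4 genes called in a replicated test or in 3 or more pairs. MEIS2, HOTAIRM1, DCN, LUM, COL3A1, PDGFRA, COL1A2, NFE2L3, CBX3, HNRNPA2B1, HIBADH and TAX1BP1 fall outside this rule and were chosen after their values were seen. Sequences are from the GRCh37 transcripts and, for promoters, RefSeq on GRCh38.p14, in which 20 of 38 members were matched.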

Additional observations from a re-analysis of the deposited data

Results flagged for a closer look

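The change in HepG2S3 against HepG2 differed from that in HCC4006ER against HCC4006P1 for 24 members by the edgeR test of the difference itself, which is what singled them out. Values are log2 differences of the changes, HepG2S3 minus HCC4006ER, and those of genes without counts in HepG2 or HepG2S3 depend on the prior count. Among posterior HOXA genes the difference was 5.75 for HOXA9, 5.99 for HOXA10, 6.10 for HOXA11 and 7.05 for HOXA13. HOXA7, a central gene that fell in HCC4006ER, had 7.97. Among HOXB genes it was 8.75 for HOXB2, 10.84 for HOXB3, 5.84 for HOXB4, 10.76 for HOXB5, 11.76 for HOXB6, 4.81 for HOXB8, 10.10 for HOXB9 and 9.45 for HOXB13. Among HOXC genes it was 7.51 for HOXC4, 6.01 for HOXC6, 1.53 for HOXC9, 10.996 for HOXC10, 7.09 for HOXC11 and 5.71 for HOXC13, and among HOXD genes 7.61 for HOXD9 and 4.39 for HOXD11. The difference was in the other direction for HOXD1 at -8.85, HOXD3 at -4.05 and HOXA3 at -1.54. HOXA3 fell in each pair, and its difference (edgeR adjusted p = 0.0358) was lost in 6 of 11 alternatives. HOXD3 lost its call in 1, and the other 22 were called in every alternative in which they were tested.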

How the results depend on the processing

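Counts of called members were recomputed under each alternative, and no result reversed in direction. Of the alternatives to counts and profiles, 97 stayed within 1.5 times the main value, 11 were lower and 4 higher by more, and of those to single members 611 kept their call and 35 lost it. With a pseudocount of 0.1 CPM the 2-fold rule called 8 members in PancB1Q, 9 in PancB1V and 13 in HCC4006ER. With 5 CPM it called 14 each in HepG2S1 and HepG2S3, 0 each in PancB1Q and PancB1V, 1 each in HCC4006GR, HCC827GR and U10, and 2 each in HCC4006ER, IGROV-1/CDDP and U100, since a larger pseudocount shrinks the changes of low genes. With totals over the genes before the point where HCC4006P1 replicate 1 ends, PancB1Q had 2. With the genes past that point kept, edgeR called 9 members in HCC4006ER. Leaving out each library in turn gave 24 to 27 called members in HepG2S3, 10 to 20 in HCC4006ER (10 without HCC4006ER replicate 2), 22 to 25 for their difference, and 0 to 0 when each of the 7 parental lines was left out. By the 2-fold rule it gave 24 to 24 in HepG2S1 and 21 to 22 in HepG2S3. A lone library left in a pair is then assumed to vary like the other line. The own parental line was nearest for 7 resistant lines in every setting run.

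With the replicate number as a block edgeR called 26 members in HepG2S3, 19 in HCC4006ER and 24 for their difference. Deviations of libraries with the same number had a correlation over genes of 0.0469 for HepG2 and HepG2S3 and 0.377 for HCC4006P1 and HCC4006ER, and with 2 pairs the libraries share only a number.

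Depth limits what is said of low members: 3 counts are up to 0.305 CPM, and 11 of the 38 members did not pass the low-count filter in the test of HepG2S3 and 4 in that of HCC4006ER.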
